A study of Mus musculus with 15 samples.

Results

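The 34 interferon-stimulated genes described here are transcripts that cells raise when interferon reaches them. They were taken as every non-control probe whose gene name on the array was one of the 34, which gave 57 of 56605 probes. All 34 genes were measured, among 22342 genes tested in all. Tumours came from mice with the MMTV-PyMT transgene, in which the mouse mammary tumour virus promoter drives polyoma middle T antigen in mammary epithelium, so both groups carry the same oncogene. The 8 tumours labelled B6 came from mice on the C57BL/6 background, and the 7 labelled Wsh from MMTV-PyMT mice with the Wsh background, all at 20 weeks of age. Wsh is known as the W-sash allele of Kit, a chromosomal rearrangement near this receptor gene that leaves mice without mast cells, and the series asks how mast cells bear on the phenotype of breast cancer cells. Other DNA that differs between the backgrounds cannot be told apart from the Kit allele. Nothing in the labels tells whether each tumour had its own mouse, and the p-values reflect the spread among the tumours measured.

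Type I interferons signal through a receptor on nearly every cell to the kinases JAK1 and TYK2, which activate a complex that holds STAT2 and IRF9. That complex binds interferon-stimulated response elements in target promoters and raises antiviral genes, among them Irf7, whose product in turn raises interferon genes. Interferon gamma acts through another receptor and, by way of GAS elements, raises genes such as Irf1 and the guanylate-binding proteins. In breast tumours both cancer cells and infiltrating leukocytes can carry this program. Because whole tumour pieces were measured, fewer cells of a type and less RNA per cell cannot be told apart.

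Promoter sequences were searched for the cores of both elements named above. Of the 34 members, 26 had an entry in the RefSeq promoter table (build GRCm38.p6), which spans 250 bases before to 50 bases after each start. The letters GAAANNGAAA, the core of the interferon-stimulated response element, read on both strands, occurred in 15 of these 26 members (57.7%) and in 1079 of 27025 genes in the table (3.99%). The letters TTCNNNGAA, the core of the GAS element, occurred in 7 of 26 members (26.9%) and in 9.55% of genes. A few of the promoters with the first motif are printed because their genes carry the results below, each as the 120 bases before the start. Capitals mark GAAANNGAAA or its reverse complement. Ifit1 lies at chr19:34640769-34640888 on the plus strand, Isg15 at chr4:156200819-156200938 on the minus strand and Oas1a at chr5:120907526-120907645 on the minus strand. Oas3 lies at chr5:120777660-120777779 on the minus strand, Rsad2 at chr12:26456453-26456572 on the minus strand and Gbp2 at chr3:142620543-142620662 on the plus strand.
Ifit1: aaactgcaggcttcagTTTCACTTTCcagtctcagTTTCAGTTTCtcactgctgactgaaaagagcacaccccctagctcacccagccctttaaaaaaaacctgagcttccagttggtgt
Isg15: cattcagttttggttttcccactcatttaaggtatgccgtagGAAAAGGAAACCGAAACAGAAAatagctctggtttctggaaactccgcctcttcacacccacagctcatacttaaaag
Oas1a: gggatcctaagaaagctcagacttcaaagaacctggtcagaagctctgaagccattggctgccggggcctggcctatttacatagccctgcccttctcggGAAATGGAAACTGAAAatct
Oas3: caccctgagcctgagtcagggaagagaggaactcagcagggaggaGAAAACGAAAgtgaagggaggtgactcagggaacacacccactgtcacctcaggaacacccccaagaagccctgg
Rsad2: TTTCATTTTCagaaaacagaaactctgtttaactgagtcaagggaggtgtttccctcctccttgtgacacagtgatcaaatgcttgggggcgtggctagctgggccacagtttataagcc
Gbp2: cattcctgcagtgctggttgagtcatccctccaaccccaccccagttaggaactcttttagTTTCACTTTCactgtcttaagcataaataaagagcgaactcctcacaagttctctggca
Isg15 held 3 overlapping matches, Ifit1 2 separate ones and Oas1a 2 overlapping ones. A match is a description of these letters and not a binding site. Irf7 itself held neither motif in this window.

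The signal of each probe was read as log2 of its intensity relative to the 75th percentile of its array. For a gene with several probes, the probe with the highest mean was used. On this scale none of the 34 members differed between Wsh and B6 tumours at a limma adjusted p of 0.05, where 75 of all genes tested did (0.336%). None reached an unadjusted p under 0.05 either, against 10.4% of all genes, and no member had groups that did not overlap, against 0.358% of all genes. The difference, Wsh minus B6, was above 0 for 21 members and below 0 for 13, with a median of 0.02 beside -0.01 over all genes. The 95% confidence interval of the difference lay within 1 log2 unit of 0 for 31 members, and within 0.585, a 1.5-fold change, for 14. The 3 members with wider intervals were Oas2, Oas3 and Rsad2. The plot of differences shows the 34 intervals.

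**Figure D1:**
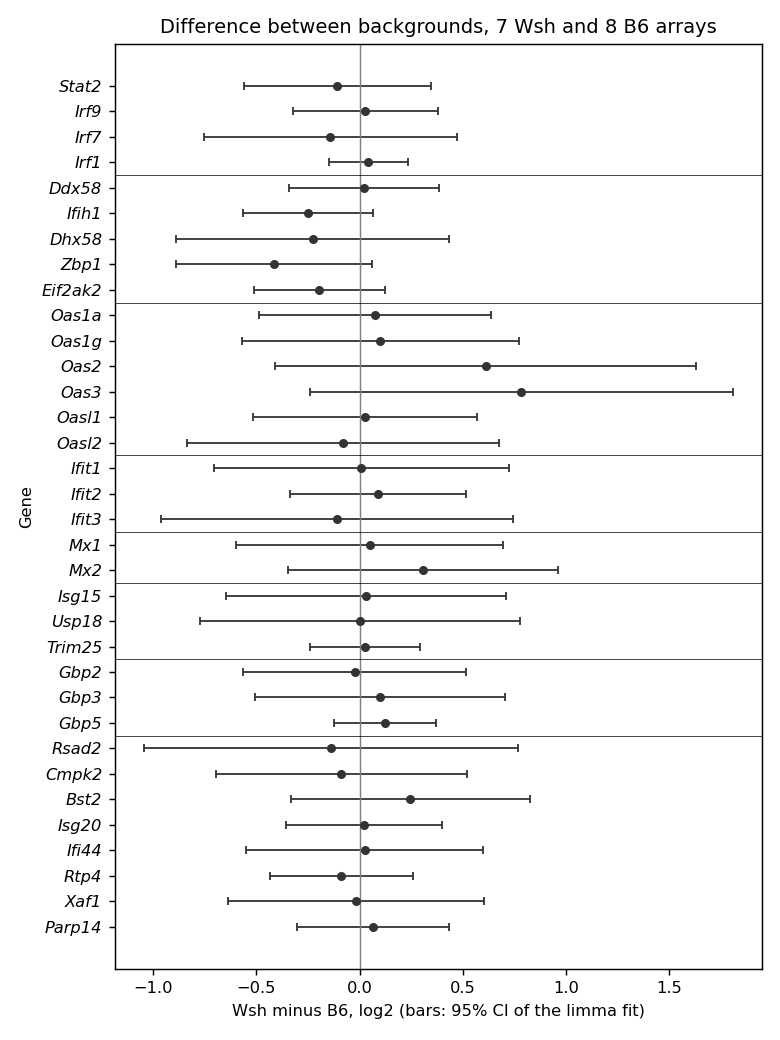
Wsh minus B6 difference of each of the 34 genes in log2 units, as points with the 95% confidence interval of the limma fit (8 B6 and 7 Wsh arrays), with horizontal lines between roles. All 34 intervals include 0, and the widest reach above 1, for Oas2 and Oas3.

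Among the factors that carry the signal, Stat2, the partner of IRF9 in the transcription complex, ran from 1.89 to 2.93 in B6 (median 2.44) and from 1.63 to 3.22 in Wsh (median 2.39). Irf7, the factor that amplifies the response, ran from 4.31 to 6.26 in B6 (median 5.61) and from 4.69 to 6.20 in Wsh (median 5.28). The groups overlapped over nearly their whole range for both, with the highest value of each group in replicate 3 and the lowest in B6 replicate 8 and Wsh replicate 5. The difference was -0.11 (SE 0.21, limma adjusted p = 0.917) for Stat2 and -0.14 (SE 0.29, limma adjusted p = 0.920) for Irf7. Irf9 and Irf1 differed by 0.03 and 0.04. Irf1 was the steadiest member, with an SD over the 15 arrays at percentile 6.62 of all genes.

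The nucleic acid sensors and the kinase Eif2ak2 were the role with the lowest median difference (-0.23, 4 of 5 below 0). With the mean of all probes of each gene in place of 1 probe, that median was -0.09, with 4 of 5 still below 0. Zbp1, a sensor of Z-form nucleic acid that can start necroptosis, ran from 0.48 to 2.03 in B6 (median 1.38) and from 0.33 to 1.51 in Wsh (median 0.73). Ifih1, the long double-stranded RNA sensor MDA5, ran from 1.65 to 2.32 in B6 (median 2.0) and from 1.26 to 2.33 in Wsh (median 1.74). Most Wsh values of Zbp1 lay in the lower part of the B6 range, but neither gene separated the groups. Zbp1 had the lowest adjusted p of all members, with a difference of -0.41 (SE 0.22, limma adjusted p = 0.555), and Ifih1 had -0.25 (SE 0.15, limma adjusted p = 0.610). Dhx58, a regulator of the RNA sensors, had -0.23, Eif2ak2, the kinase PKR that stops translation, -0.20, and Ddx58, the sensor RIG-I, 0.02. The other 3 probes of Ddx58 had 0.35, 0.38 and 0.44, and the second probe of Ifih1 had 0.06.

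The OAS genes encode synthetases that make the activator of RNase L, and Oasl1 and Oasl2 are their relatives. Oas3 ran from -5.44 to -2.04 in B6 (median -3.26) and from -3.81 to -1.58 in Wsh (median -2.95). Oas2 ran from 1.99 to 4.99 in B6 (median 3.61) and from 2.76 to 5.58 in Wsh (median 4.33). Both had their lowest value in B6 replicate 8 and their highest in Wsh replicate 3, and both spread over more than 2 log2 units within each group. Their differences were the largest of the 34, 0.78 (SE 0.48, limma adjusted p = 0.624) for Oas3 and 0.61 (SE 0.48, limma adjusted p = 0.724) for Oas2. Oas3 was the one member not well above background on all arrays, reaching it on 13 of 15. Oas1a, Oas1g, Oasl1 and Oasl2 differed by between -0.08 and 0.10. Oas1a and Oas1g are close copies, and their probes may share transcripts.

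The plot of single tumours sets these genes side by side.

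**Figure D2:**
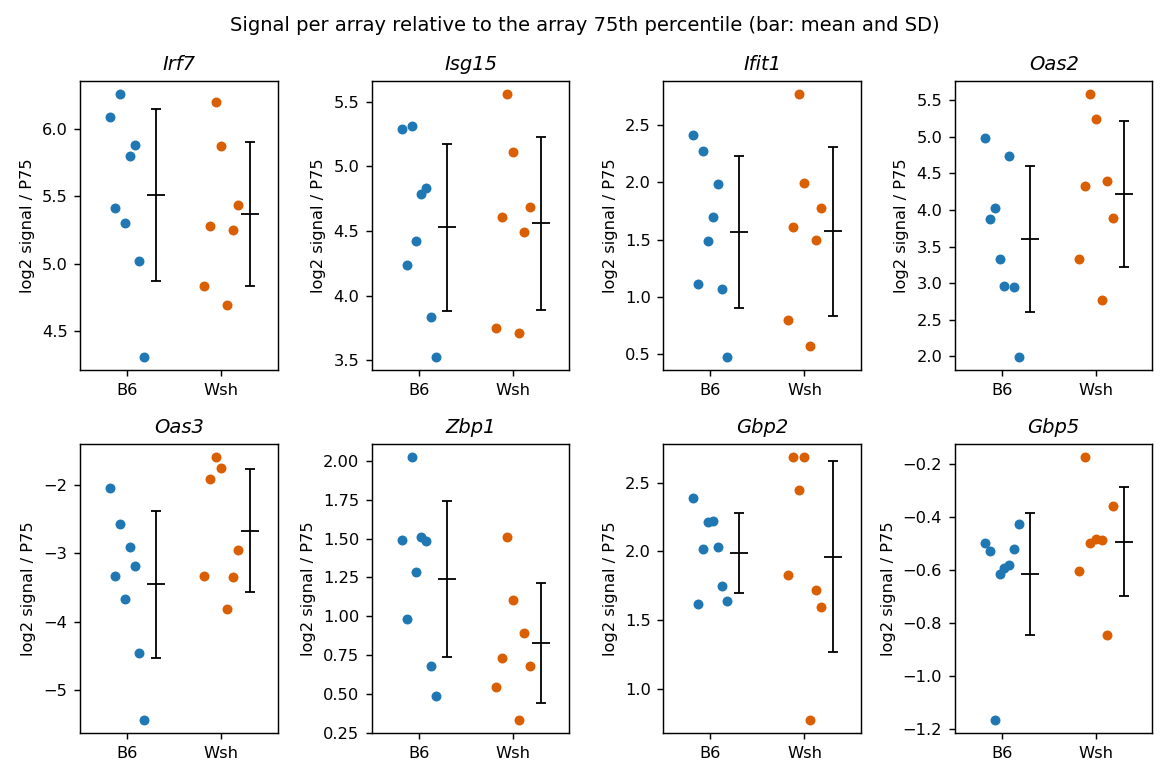
Signal of 8 of the genes on each array, as log2 of the signal relative to the array 75th percentile (P75), 8 B6 points and 7 Wsh points per panel, with the mean and SD beside them. The groups overlap in all 8 panels, from Irf7 (4.31 to 6.26 in B6, 4.69 to 6.20 in Wsh) to Gbp5, where B6 replicate 3 lies lowest at -1.16.

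The IFIT proteins bind viral RNA and block its translation. Ifit1 ran from 0.48 to 2.41 in B6 (median 1.59) and from 0.58 to 2.76 in Wsh (median 1.61). Ifit2 ran from -1.72 to -0.56 in B6 (median -1.12) and from -1.59 to -0.30 in Wsh (median -1.23). Ifit3 ran from 1.25 to 3.57 in B6 (median 2.71) and from 1.07 to 3.95 in Wsh (median 2.46). In each of the 3 genes the group ranges nearly coincided. Ifit1 differed by 0.01 (SE 0.34), with a 95% confidence interval from -0.71 to 0.72 (limma adjusted p = 0.997), Ifit2 by 0.09 and Ifit3 by -0.11.

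Mx1 and Mx2 encode dynamin-like GTPases that trap viral particles. Mx1, of which C57BL/6 mice are known to carry a defective allele, ran from -1.04 to 0.60 in B6 (median 0.02) and from -1.03 to 1.37 in Wsh (median -0.02). Mx2 ran from -1.25 to 0.33 in B6 (median -0.26) and from -0.93 to 1.25 in Wsh (median 0.01). Wsh replicate 3 was the highest array for both and the rest of the Wsh values lay within or near the B6 range. The difference was 0.05 (SE 0.30) for Mx1 and 0.31 (SE 0.31, limma adjusted p = 0.798) for Mx2.

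Isg15 encodes a ubiquitin-like protein joined to other proteins, Usp18 encodes the protease that removes it and that also damps the receptor, and Trim25 encodes a ubiquitin ligase that activates RIG-I. Isg15 ran from 3.53 to 5.31 in B6 (median 4.60) and from 3.72 to 5.56 in Wsh (median 4.61). Trim25 ran from 4.32 to 4.91 in B6 (median 4.57) and from 4.26 to 5.01 in Wsh (median 4.66). The medians of the groups were close for both, and Trim25 was the narrower. Isg15 differed by 0.03 (SE 0.32, limma adjusted p = 0.986), Trim25 by 0.02 (SE 0.13), and Usp18 by 0.0003 with a confidence interval from -0.77 to 0.78.

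The guanylate-binding proteins are GTPases that attack vacuoles of intracellular microbes and are raised by interferon gamma above all. Gbp2 ran from 1.62 to 2.39 in B6 (median 2.03) and from 0.78 to 2.69 in Wsh (median 1.83). Gbp3 ran from 1.33 to 3.09 in B6 (median 2.54) and from 1.46 to 3.36 in Wsh (median 2.49). Gbp5 ran from -1.16 to -0.43 in B6 (median -0.55) and from -0.85 to -0.17 in Wsh (median -0.49). Wsh values of Gbp2 lay both above and below all B6 values (SD 0.70 against 0.29), while Gbp3 covered like ranges in both groups. The difference was -0.02 for Gbp2, 0.10 for Gbp3 and 0.12 (SE 0.12, limma adjusted p = 0.785) for Gbp5.

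Of the other 8 effectors, Bst2, the tether that holds budding virus at the cell surface, ran from 2.19 to 3.94 in B6 (median 3.51) and from 2.64 to 4.40 in Wsh (median 3.81). Rtp4, a chaperone of membrane receptors, ran from 4.0 to 4.92 in B6 (median 4.62) and from 4.10 to 4.90 in Wsh (median 4.41). Bst2 in Wsh reached above the B6 range in some tumours and Rtp4 did not. Their differences were 0.24 (SE 0.27, limma adjusted p = 0.825) and -0.09 (SE 0.16, limma adjusted p = 0.912). Rsad2, which encodes the antiviral enzyme viperin, its neighbour Cmpk2, a nucleotide kinase, Isg20, an exonuclease, Ifi44, Xaf1 and Parp14, an ADP-ribosyltransferase, differed by between -0.14 and 0.07.

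The members varied widely between tumours of either group. The median SD of the members over the 15 arrays was 0.544, against 0.303 over all genes, and 30 of 34 members lay above the all-gene median. The members rose and fell on the same arrays, as the heat map of deviations shows. In Wsh replicate 3 all 34 members were above their own mean and 25 had their highest value of all arrays, with a median deviation of 0.86. In B6 replicate 8 only 2 members were above their mean, 18 had their lowest value and the median deviation was -0.95. Wsh replicate 5 was next lowest (median deviation -0.76, 9 members at their lowest), and B6 replicates 1, 3 and 6 followed Wsh replicate 3 at the upper end (0.45, 0.44 and 0.39). High and low tumours thus occurred in both groups. The median deviation over all genes ran from -0.09 to 0.05 on the 15 arrays. B6 replicate 8 also had the highest 75th percentile signal, 6406 intensity units against 3328 to 5029 on the other arrays, and the part of this scaling value in its low levels was not tested.

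**Figure D3:**
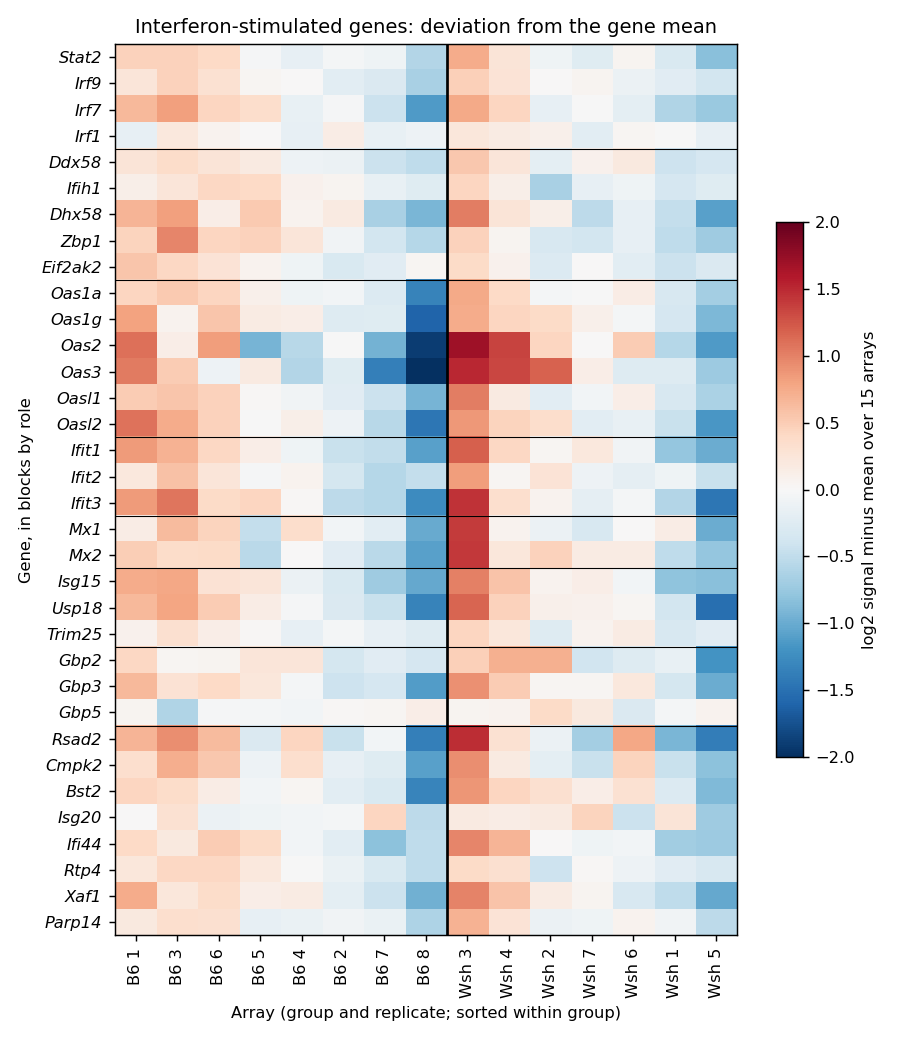
Deviation of each of the 34 genes (rows, in blocks by role) from its mean over 15 arrays, in log2 units, with arrays sorted within group by the median deviation. Red is above and blue below the gene mean, on a scale cut at 2. Most rows share much the same order of arrays, from Wsh replicate 3 (median 0.86) to B6 replicate 8 (-0.95). Irf1 and Isg20 follow it more loosely (r with Irf7 0.53 and 0.44), and Gbp5 does not (r = -0.33).

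Single arrays weighed on the sign of the differences. Without Wsh replicate 3, 28 of 34 members were below 0 (median -0.14), without B6 replicate 8, 27 were below 0 (median -0.11), and without Wsh replicate 5, 28 were above 0 (median 0.14). No member passed in limma in any of these fits. With both Wsh replicate 3 and B6 replicate 8 out, a choice made after the values were seen, 31 members were below 0 (median -0.24). Zbp1 then had the lowest limma adjusted p, 0.323. In that fit 3 of 34 members reached an unadjusted p under 0.05, against 8.59% of all genes.

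Most members followed Irf7. Over the 15 arrays 30 of the other 33 members correlated with Irf7 at an adjusted permutation p under 0.05 by Pearson's r (adjusted over 67 pairs, 33 with Irf7 and 34 with Ifng, two-sided), and 29 did so by Spearman's rho as well. The median r was 0.86, and it was 0.92 within B6, 0.91 within Wsh and 0.87 on each slide. Without B6 replicates 3 and 8, the arrays farthest from the median of Irf7, it was 0.89. An r over 0.7 was reached by 29 members and by 179 of 22273 other genes (0.804%), whose median r was 0.05. The members are known interferon targets and are not independent of each other. Without Wsh replicate 3 and B6 replicate 8 the median r was 0.85, with 25 members over 0.7 and 27 called.

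Isg15 followed Irf7 most closely (r = 0.96, rho = 0.96, permutation adjusted p = 4.8e-05 by Pearson). Its permutation p of 1e-05 is the smallest that 100000 resamples can give. The transcription factor Irf9 (r = 0.96), Ifit1 (0.95), Oas1a (0.95), Gbp3 (0.91), Stat2 (0.91) and Zbp1 (0.89) followed closely too. The 3 members not called were Irf1 (r = 0.53, rho = 0.45, permutation adjusted p = 0.0861), Isg20 (r = 0.44, rho = 0.34, adjusted p = 0.191) and Gbp5 (r = -0.33, rho = -0.19, adjusted p = 0.382). Gbp2 passed by Pearson (r = 0.61, permutation adjusted p = 0.0306) and not by Spearman (rho = 0.55, adjusted p = 0.0810).

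Between members, the median r of the 561 pairs was 0.81, and 68.6% of pairs exceeded 0.7. Without Wsh replicate 3 and B6 replicate 8 the median was 0.74. Ifit1 and Isg15, on different chromosomes, were the closest pair (r = 0.98), followed by Rsad2 and Cmpk2 (0.98), which lie next to each other on chromosome 12, and Ifit3 and Usp18 (0.97). Within roles the median r was 0.90 for the IFIT genes, 0.86 for the OAS genes, 0.86 for the ISG15 system and 0.12 for the guanylate-binding proteins. The last is the median of 3 pairs, of which Gbp2 with Gbp3 had r = 0.74, while those with Gbp5 had 0.12 and -0.18 on the probe described below. These values describe 15 tumours, and arrays share slides.

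**Figure D4:**
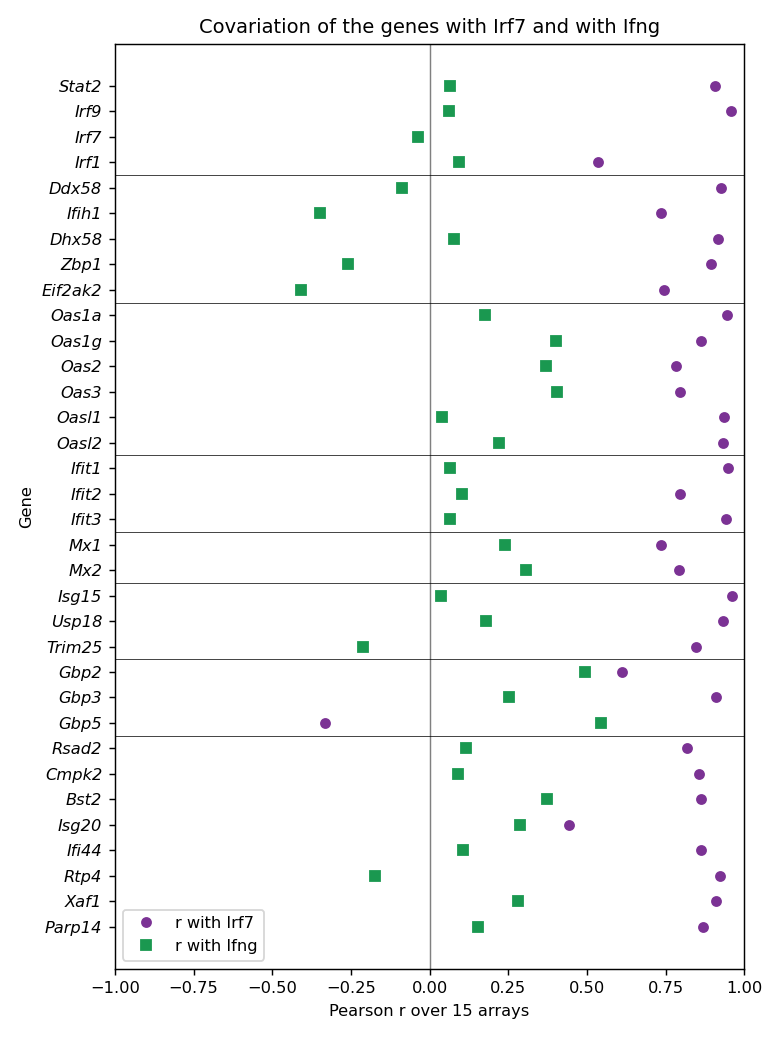
Pearson r over 15 arrays of each gene with Irf7 (circles, 33 genes) and with Ifng (squares, 34 genes), with horizontal lines between roles. Most circles lie above 0.7 and all squares lie below 0.6, and Gbp5 is the one gene whose circle lies below 0 (-0.33).

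Ifng, the gene of interferon gamma, was well above background on 9 of 15 arrays and ran from -6.76 to -3.77 in B6 (median -4.98) and from -5.50 to -2.86 in Wsh (median -4.08). The groups overlapped, with a difference of 0.96 (SE 0.43, limma adjusted p = 0.459). No member correlated with Ifng at an adjusted permutation p under 0.05, and the median r was 0.10. The share of all genes called against Ifng was not computed. An r over 0.7 with Ifng was reached by 0 of the 34 members and by 553 of 22272 other genes (2.48%). The median r of those other genes was -0.105. With so low a share, the lack of members over 0.7 does not set them apart from other genes. Without B6 replicate 3 and Wsh replicate 2, the arrays farthest from the median of Ifng, the median r of the members was 0.43. A single member passed in some other settings, and not the same one: Oas3 with another background correction (r = 0.59, permutation adjusted p = 0.0420), Eif2ak2 when scaled by the median (r = -0.62, permutation adjusted p = 0.0287) and Gbp5 with the mean of its probes (r = 0.86, permutation adjusted p = 0.000315). Gbp5 also passed without Wsh replicate 3 and B6 replicate 8 (permutation adjusted p = 0.0471). At the unadjusted level Gbp5 alone had a Pearson permutation p under 0.05 (r = 0.55, p = 0.0375, rho = 0.08, adjusted p = 0.0810), and that r was -0.28 without B6 replicate 3 and Wsh replicate 2. Gbp2 had r = 0.49 (rho = 0.48, permutation adjusted p = 0.127). The median r with Ifng was -0.41 on slide 1 and 0.54 on slide 2.

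Gbp5 was measured by a pair of probes that did not move together (r = 0.27). The row used above is a probe for an Ensembl transcript at chr3:142181426-142181485 (mm9, plus strand), and the other lies in the RefSeq transcript of Gbp5 at chr3:142184779-142184838. The RefSeq probe ran from -3.66 to -1.26 in B6 (median -2.33) and from -3.27 to -0.56 in Wsh (median -1.57). Its groups overlapped, with a difference of 0.71 (SE 0.37, limma adjusted p = 0.490 over all probes). Against Ifng it had r = 0.80 (rho = 0.84, unadjusted permutation p = 0.00038), with r = 0.60 within B6, 0.91 within Wsh, 0.82 on slide 1, 0.94 on slide 2 and 0.82 without the 2 arrays farthest from the median of Ifng. Against Irf7 its r was 0.20. This probe was singled out after its values were seen.

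Other probes of the members mostly followed Irf7 too, while the sign of the group difference changed between probes for several genes. Of the 57 probes, 54 were well above background on at least 7 arrays, and 15 members had 1 probe. None of the 54 passed in limma between the groups, where 114 of 34346 probes did (0.332%). Of the 54, 38 had a difference above 0 and 16 below. Of the 20 probes not used as the row of their gene, 16 correlated with Irf7 at an adjusted permutation p under 0.05 (over 20, median r = 0.74). The highest of these was the second probe of Irf7 itself (r = 0.88), and Ddx58 and Trim25 entered with several probes each. No such share was computed over all probes. For Zbp1 the 2 probes differed in sign, -0.41 at chr2:173039307-173039366 (mm9, minus strand) and 0.24 at chr2:173032258-173032317, designed to different transcripts, with r = 0.63 between them. For Irf1 the second probe had -0.31 and r = -0.05 with the first, and for Stat2 it had 0.25 and r = 0.72. The sign also differed between the probes of Ifih1 (-0.25 and 0.06) and Rsad2 (-0.14 and 0.03). So it did for Isg20 (0.02 and -0.03) and for the tested probes of Xaf1 (-0.02 and 0.005).

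The rest of the pathway was read in the same fit. No gene of the 6 pathway lists passed in limma between the groups, with 103 of 113 listed genes tested, of which Socs1 stands in 2 lists. Among the interferon genes, 6 of 12 could be tested, and Ifnb1, Ifna2, Ifna4, Ifna12, Ifne and Ifnl2 were not among the genes tested. The genes with the largest limma statistic there had differences of 0.96 for Ifng, 0.37 for Ifna9 and 0.26 for Ifnk. Among receptors and kinases, Jak2 had -0.21 and Ifngr1 0.23. Among sensing adaptors and factors, Mavs had -0.19, Tbk1 -0.14 and Irf5 0.50, and Irf8, with a smaller statistic, had 0.52. Of the restraining genes, Samhd1, which limits DNA precursors, had 0.27, Socs1 0.30 and Socs3 0.28. Ciita, the activator of MHC class II genes, had the lowest adjusted p of the lists (0.83, SE 0.28, limma adjusted p = 0.278), beside Ido1 at -2.58 and Gbp4 at 0.78 among genes induced by interferon gamma. Of the other interferon-induced genes, Ifi205 had 0.64, Parp10 -0.22 and Ly6a -0.50.

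Against Irf7, the lists differed in how many of their genes were called. Of 40 other interferon-induced genes, 27 correlated at an adjusted permutation p under 0.05 (over 104 list entries, with Socs1 counted in both of its lists), all positively, with a median r of 0.75. Of 25 genes induced by interferon gamma 11 did and of 10 restraining genes 4, all positively, while none of the 6 interferon genes (median r = -0.06) and none of the 13 sensing adaptors did. The share called was not computed over all genes. An r over 0.7 was reached by 21 of the 40, 8 of the 25 and 1 of the 10. It was reached by 0 of the 6 and 0 of the 13, near the 0.804% of 22273 genes outside the members. The restraining gene Trex1, a DNA exonuclease, had r = 0.77 (rho = 0.79, permutation adjusted p = 0.0032).

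The genes outside the list most like Irf7 over the 15 arrays were Gm9706 (r = 0.95), Oas1f (0.94), Apol9a (0.94), Ddx60 (0.93) and Rnf213 (0.93). Whether the probes of Gm9706 and Oas1f share transcripts with those of members was not tested. Those most like Gbp2 were Gm11127, H2-Q8, H2-M2, the transcript HQ258995 and H2-T10, with r from 0.93 to 0.94. H2 genes encode MHC class I chains and are close copies of each other, so their probes may share transcripts.

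The members were mostly lower on slide 2, but they did not vary independently of each other. The lowest arrays, B6 replicate 8 and Wsh replicate 5, lay on slide 2, and the highest, Wsh replicate 3, on slide 1. Of the 15 arrays, 8 lay on slide 1 (4 B6, 4 Wsh) and 7 on slide 2 (4 B6, 3 Wsh), and 33 of 34 members were lower on slide 2, with a median difference of -0.45 against 0.02 over all genes. None passed in limma (lowest adjusted p = 0.464, where 0.0313% of all genes passed), and 7 had an unadjusted p under 0.05, against 8.48% of all genes. With slide as a block, the difference between groups was above 0 for 15 members and below 0 for 19, and none passed. The median difference was 0.004 on slide 1 and -0.06 on slide 2. The group difference itself did not differ between slides at the threshold for any member (lowest limma adjusted p = 0.826, where 0.00895% of all genes passed). Gbp2 alone had an unadjusted p under 0.05 there, against 5.43% of all genes, with a difference of 0.35 on slide 1 and -0.55 on slide 2.

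Tissue and group labels were checked against fixed marker genes. All 8 luminal epithelial markers, among them Krt8, Krt18 and Epcam, were well above background on all arrays. Kit was lower in Wsh (-2.65, SE 0.28, limma adjusted p = 0.000208), and the mast cell protease genes Mcpt4 and Cma1 were called lower too (limma adjusted p = 0.000564 and 0.00593). The other 3 mast cell markers tested were not called, Cpa3 (limma adjusted p = 0.0713), Tpsb2 (0.501) and Fcer1a (0.769). The share of spots well above background ran from 55.7% to 73.4%, and array correlations from 0.926 to 0.990.

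Markers of other cell types were set against the members as the log2 of each list's summed signal. Across 12 lists and the genes Irf7, Gbp2, Irf1 and Zbp1, none of 48 correlations passed by adjusted permutation p. The strongest were those of the luminal epithelial sum (8 of 8 markers tested, 7.65 to 8.29 in B6, 7.50 to 8.04 in Wsh) with Zbp1 (r = 0.71, rho = 0.65) and Irf7 (r = 0.67, rho = 0.65), each with an adjusted permutation p of 0.102. Without Wsh replicate 1 and B6 replicate 3 these r were 0.54 and 0.55. They were 0.87 and 0.81 within B6 and 0.36 and 0.41 within Wsh. The neutrophil sum (6 of 8 markers tested, 5.11 to 5.79 in B6, 5.39 to 6.50 in Wsh) had r = -0.66 with Zbp1 (rho = -0.67, permutation adjusted p = 0.102). Plasmacytoid dendritic cells are known as strong producers of type I interferon. The sum of the markers listed for them had r = 0.56 with Irf7 (7 of 8 markers tested, 5.90 to 6.53 in B6, 6.28 to 6.58 in Wsh, permutation adjusted p = 0.316), and r = 0.20 without B6 replicates 4 and 8. This sum lay above the T cell sum on every array. Whether it reflects the number of plasmacytoid dendritic cells was not tested. The T cell sum (9 of 10 markers tested, 1.82 to 3.78 in B6, 2.10 to 4.53 in Wsh) had r = -0.13 with Irf7 and the macrophage sum (10 of 10, 4.98 to 6.06 in B6, 5.47 to 6.17 in Wsh) 0.01. The part of these cell types in the levels of the members was not tested.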

How the data were processed

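Amplified total RNA from 15 tumours carried the dye Cy3 on 1-colour Agilent arrays, per the labels' protocols. The authors deposited spot intensities read with Agilent Feature Extraction 10.7.3.1 (design on build mm9), which per the file headers are background-subtracted, detrended and floored but not normalized between arrays, and a table of log2 values. The deposited log2 table has the rank order of median signal minus background on each array and column medians from 8.605 to 8.608. Its normalization is not given in the sources used here, and it served as an alternative.

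Computed here were log2 intensities minus each array's 75th percentile over non-control spots, outlier spots left out. Probes well above background on at least 7 arrays were kept, and the probe of highest mean stood for a gene. Groups were tested two-sided in limma 3.58.1 under R 4.3.3, by lmFit followed by eBayes. Benjamini-Hochberg adjustment ran over all 22342 genes, with a threshold of 0.05. Correlations used permutation tests with 100000 resamples (Python 3.11.15). The fit was tested on simulated data, where it called 96.0% of genes changed by 2 log2 units and 76.0% of those changed by 1. The simulation covered all 22342 genes and gives no share for the members alone. Their median SD over the 15 arrays was 0.544, against 0.303 over all genes. The number of arrays limits the precision.

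Members and lists were chosen with earlier results of these data known. Values are given for the 2 members with the largest statistic in each role and for Stat2, Irf7, Isg15, Ifit1, Mx1, Gbp2 and Zbp1, and others as ranges. Of each pathway list up to 3 genes with the largest statistic are named. Alternatives were background correction, normalization, filter, probe rule, slide, replicate block, array weights, the deposited values and leaving out each array. No protein sequence or genome was used here. Part of the results of the receptor and signalling list is not reported here.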

Additional observations from a re-analysis of the deposited data

Results flagged for a closer look

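In 4 of 68 sets of values, a gene within a group, the lowest array stood apart from the others by a gap that is large against the whole range of the group. Chance gives such a gap in about 1 of 20 groups. Oas1a in B6 replicate 8 was at 3.05, with the next B6 tumour at 4.12. Oas1g in B6 replicate 8 was at -2.89, with the next at -1.54. Bst2 in B6 replicate 8 was at 2.19, with the next at 3.20. Gbp5 in B6 replicate 3 was at -1.16, with the next at -0.62, on the probe that did not move with the RefSeq probe of the gene.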

How the results depend on the processing

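No member passed between Wsh and B6 in limma in any of 29 other settings, with a lowest adjusted p of 0.291 for Oas3 under array weights. Only Ifih1, Dhx58, Zbp1, Eif2ak2, Oas2 and Oas3 kept the sign of their difference in every setting that tested them, 28 for Oas3, which was not tested where all 15 arrays had to be above background, and 29 for the others. Zbp1 ran from -0.64 to -0.09, Ifih1 from -0.39 to -0.09, Oas2 from 0.15 to 0.85 and Oas3 from 0.32 to 1.03. Dhx58, from -0.57 to -0.0004, and Eif2ak2, from -0.29 to -0.02, came close to no difference. These settings did not take the second probes of Zbp1 and Ifih1 alone, which differed by 0.24 and 0.06. Scaling by the median moved the members and all genes by a median of -0.098 and left 6 members above 0 and 28 below, while array weights left 30 above and 4 below. Over all genes the 75 calls became 25 with no filter, 4 on slide 1 alone, 1 on slide 2 alone, 153 with array weights, 28 with both B6 replicate 8 and Wsh replicate 3 out, and 25 to 76 with 1 array left out. The cause of these changes in count was not tested. Replicate numbers did not pair the samples: deviations of same-numbered tumours correlated from -0.24 to 0.21, and none of 7 correlated best with its own number. With the replicate block 15 genes and 28 probes were called, and no member. Of the 67 correlations, 30 were called, 30 to 31 in 5 other settings and 28 with both B6 replicate 8 and Wsh replicate 3 out. Weak signals, such as Oas3, Ifng and the other interferon genes, lie near background, which limits what can be read from them.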

Other observations

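Within the 8 B6 tumours alone, a choice made after the values were seen, Irf7 had r = 0.84 with the summed mast cell markers (rho = 0.76, exact permutation adjusted p = 0.0786 over 12 lists) and r = 0.81 with the luminal epithelial sum (rho = 0.90, exact permutation adjusted p = 0.0786). Without the 2 arrays farthest from the median the first was 0.52 and the second 0.83. Over all 15 arrays the mast cell sum had r = 0.24 with Irf7 (permutation adjusted p = 0.860), and within Wsh 0.09. Whether this sum reflects the number of mast cells was not tested. Of single mast cell genes, Kit had r = 0.71 with Irf7 in B6 and Tpsb2 0.54, while Cpa3, Mcpt4, Cma1 and Fcer1a had -0.24, -0.27, -0.30 and -0.51. Kit is also expressed by mammary luminal progenitor cells.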
